A study of Homo sapiens with 16 samples.

Results

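The 42 genes described here encode enzymes of glycolysis and the pentose phosphate pathway, glucose and lactate transporters, and components and targets of the hypoxia response. They were taken by gene symbol, as every probe set whose only platform symbol was one of the 42. The genes were chosen with earlier results of these data known. The arrays held 59 such probe sets for 39 of the genes, out of 8228 genes with a probe set of a single symbol. HK1, SLC16A1 and SLC16A3 had no probe set of that symbol alone and were not analysed here. Of the 59 probe sets, 41 were tested, which stood for 34 genes. Another 6 were control probe sets of GAPDH, which were not tested, and 12 did not pass a filter on low values. HK3, PFKM, ADM, BNIP3 and P4HA2 did not pass it, with readings of at most 109.7, 146, 332, 122 and 38.7 on any of the 16 arrays.

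The study followed a human monocytic leukaemia line, U937, after induction of AML1-ETO, the leukaemia fusion protein of RUNX1 (AML1) and RUNX1T1 (ETO). Arrays were made of induced cells at 12, 24, 48 and 72 h and of controls at 0, 24, 48 and 72 h, 2 in each of these 8 groups. Both kinds of cell carried the AML1-ETO construct behind a tetracycline promoter and grew in the same medium with foetal calf serum. No oxygen level or glucose treatment is named in the labels, and controls at 12 h were not analysed here. Induction of the construct is the only difference that the labels name between the groups at a given time, and all cells were of 1 line, so the groups model the fusion protein in established leukaemia cells and not in primary blood cells. No label states that the replicates were separate cultures, so the p-values rest on a spread among samples that may be only technical.

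Glycolysis breaks glucose down to pyruvate, and lactate dehydrogenase turns pyruvate into lactate. The pentose phosphate pathway branches off after the first step and yields NADPH and the ribose of nucleotides. When oxygen is scarce, the subunits HIF1A and EPAS1 escape degradation through VHL, pair with ARNT and activate glycolytic enzymes, glucose transporters and targets such as VEGFA, and leukaemia cells are known for high glycolytic activity.

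RUNX1T1, part of the fusion, had 4 probe sets, of which 1 was tested, and is given here as 1 reading per array. It read -116 and 86.1 in induced cells at 12 h, 1592 and -47.5 at 24 h, 8649.6 and 3974 at 48 h and 10603 and 8355 at 72 h, and at most 91.4 on any control array. Both arrays of induced cells at 12 h and 1 of the 2 at 24 h were therefore under the floor of 135.61, below which values were not distinguished. Of 11 myeloid and monocytic marker genes, 10 had a probe set, and CD4, CSF3R, ELANE, ITGB2, LYZ and PRTN3 were above the floor on all 16 arrays, while CSF1R was under it on all. The summed level of the 10 markers was 19419 to 36250 on induced arrays and 27957 to 32941 on control arrays, and of the 9 tested 2 were higher and 4 lower in the average effect. Summed levels were 1370 to 2239 on induced and 951.3 to 1768 on control arrays for 6 T cell markers, and 92.7 to 1574 on induced and 451.3 to 1687 on control arrays for 3 B cell markers. They were 1127 to 2319 on induced and 877.2 to 1558 on control arrays for 4 erythroid and megakaryocyte markers, and 549.5 to 1506 on induced and 480.9 to 2765 on control arrays for 5 epithelial and fibroblast markers. CD3G, CD79B and KRT18 were under the floor on all arrays, CD3E, ITGA2B and COL1A1 above it on all, and none of the tested markers of these other cell types was called. Replicates correlated at r = 0.912 to 0.955 over tested probe sets. In such bulk RNA a change in some of the cells and a change in all of them cannot be told apart.

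After induction the glycolytic and pentose phosphate genes that changed were lower, among them GPI, PKM and TALDO1, while the transporter SLC2A3 and the hypoxia factor HIF1A were higher. Among hypoxia targets VEGFA was lower and BNIP3L higher. For the average effect, the mean difference between induced and control cells of the same time over 24, 48 and 72 h (6 arrays each), 3 of 41 probe sets were called higher and 10 lower at an adjusted p under 0.05. That is 7.32% and 24.4% of the members, where 18.5% and 13.4% of all 7824 tested probe sets were called in these directions. In either direction 31.7% of the members and 31.9% of all were called. The 10 lower calls included 3 probe sets of VEGFA and 2 of PKM, so 3 genes were higher and 6 lower by their probe set of highest mean, and PGK1 was lower by its other probe set. The median log2 difference was -0.14 over the members and 0.10 over all tested probe sets. After median centring of the arrays these medians were -0.27 and -0.03, and 3 member probe sets were called higher and 12 lower. After division by the scale factor of each array, a multiplier given in the labels, they were 0.02 and 0.24, and 3 of 42 member probe sets were called higher and 6 lower. On every array as deposited the mean intensity was 1370.91 or 1370.92, so the division undoes a scaling to a common mean.

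**Figure D1:**
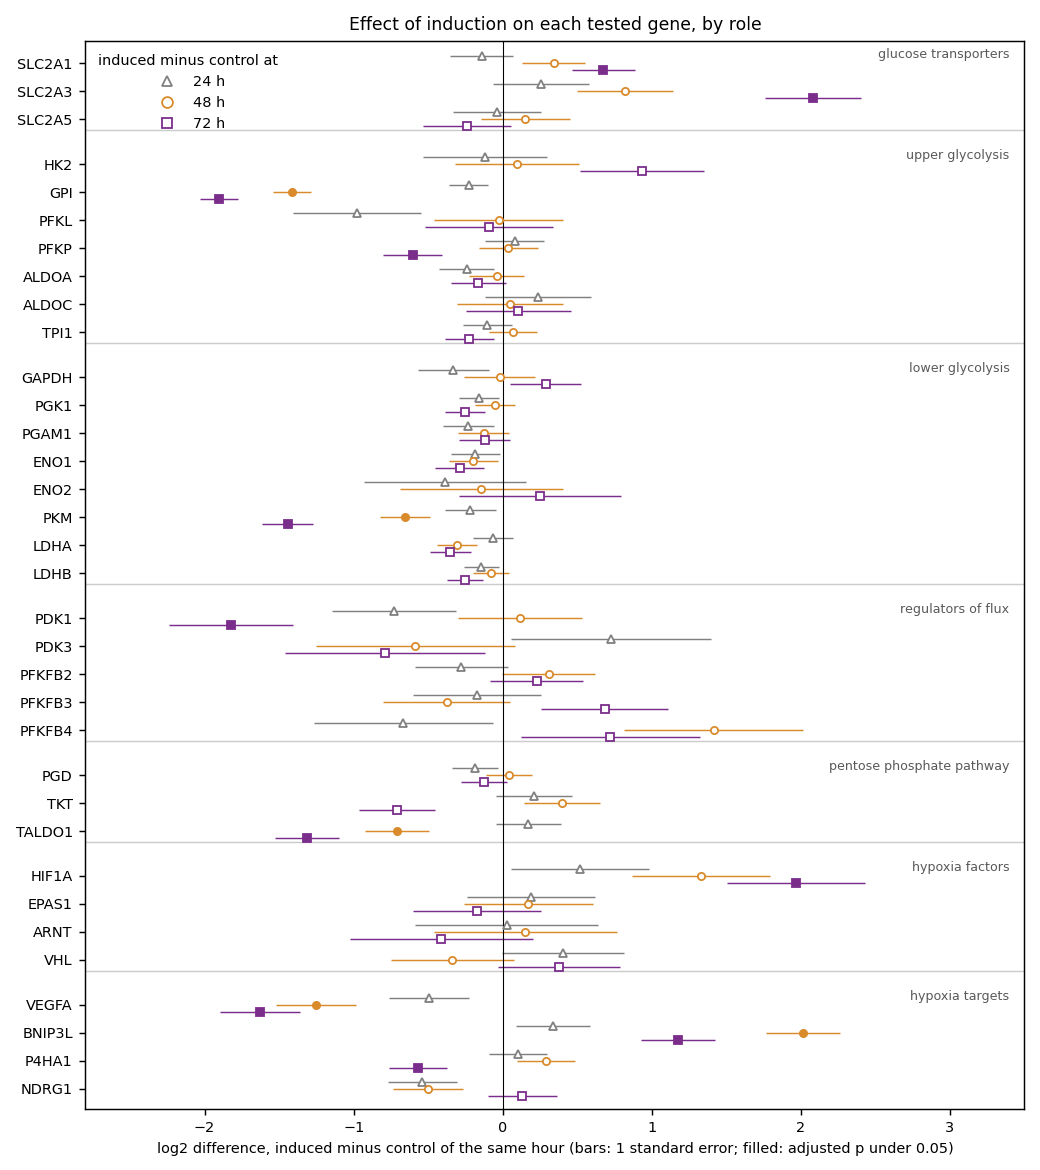
Log2 difference between induced and control cells of the same hour for each of the 34 tested genes (1 probe set a gene), grouped by role, at 24, 48 and 72 h, with bars of 1 standard error and filled symbols for an adjusted p under 0.05. No gene is filled at 24 h, the filled glycolytic and pentose phosphate genes GPI, PFKP, PKM and TALDO1 lie left of 0, and SLC2A1, SLC2A3, HIF1A and BNIP3L lie right of it.

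At 48 h, 1 member probe set was called higher and 7 lower, or 2.44% and 17.1%, where 10.5% and 8.68% of all probe sets were called. At 72 h, 4 were called higher and 10 lower, or 9.76% and 24.4%, against 16.1% and 13.9% of all. Over both times 15 member probe sets (36.6%) were called at least once and 7 (17.1%) at both, where 33.5% and 15.7% of all probe sets were. At 24 h no member was called, and the percentage called among all probe sets was 0%. By limma, 2 members (4.88%) and 397 of all probe sets (5.07%) had an unadjusted p under 0.05 at 24 h, and the smallest adjusted p among the members was 0.958. Without replicate 1 of the 48 h controls, the number of members called at 48 h was 3 instead of 8.

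**Figure D2:**
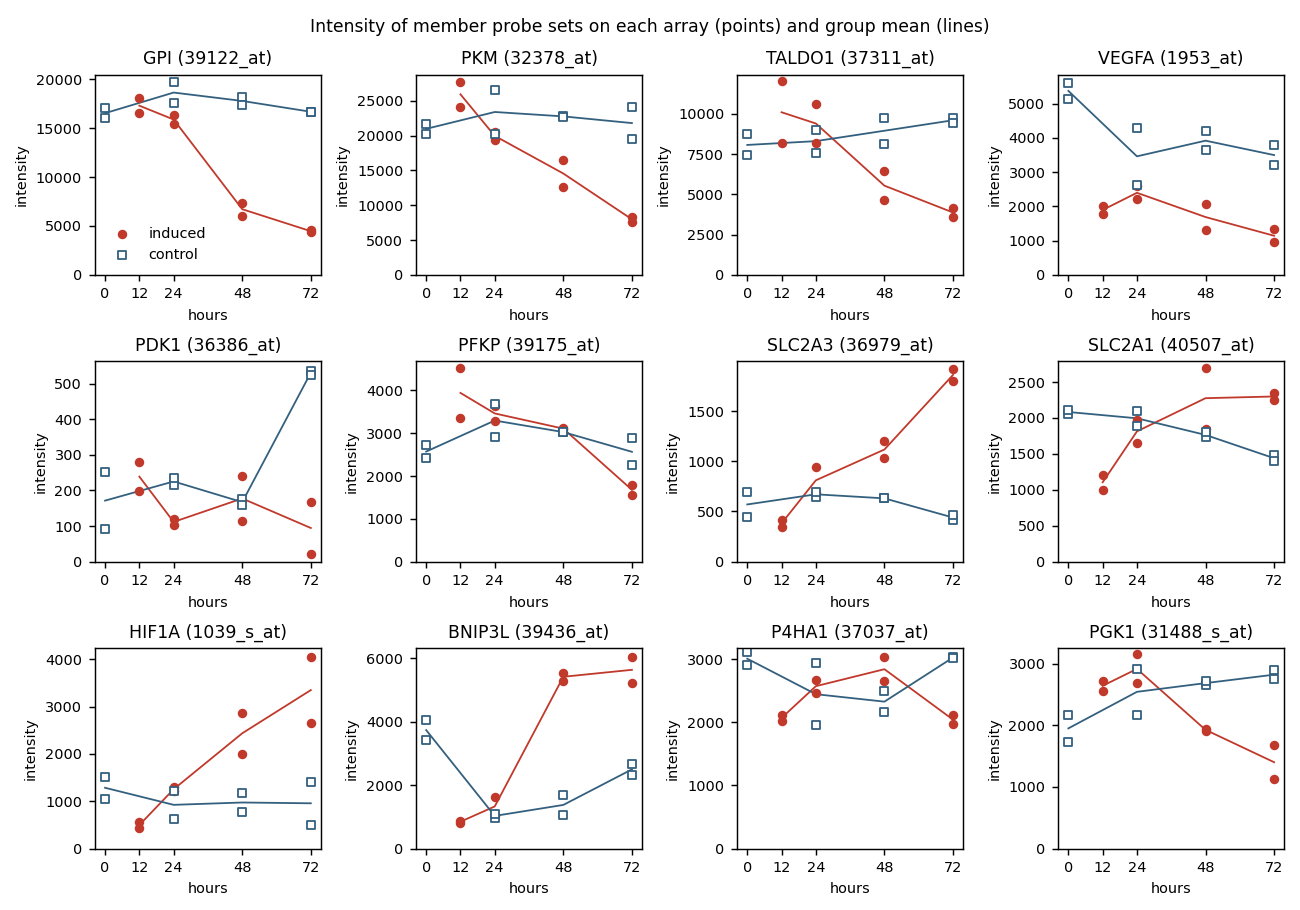
Intensity of 12 member probe sets on each of the 16 arrays (induced, filled circles; control, open squares) against hours, with lines through the means of the 2 arrays of a group. GPI, PKM, TALDO1 and VEGFA are lower in induced than in control cells at 48 and 72 h, SLC2A3, HIF1A and BNIP3L are higher, and at 72 h PDK1 parts mainly through its 2 high controls.

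Of the 3 tested transporters, SLC2A3 rose in the average effect and SLC2A1 and SLC2A3 at 72 h, and SLC2A5, a fructose transporter, was not called. SLC2A3, a high-affinity glucose transporter, read 683 and 939 in induced cells at 24 h, 1031 and 1205 at 48 h and 1805 and 1917 at 72 h. The controls read 644 and 699 at 24 h, 632 and 629.9 at 48 h and 413 and 467 at 72 h. Induced and control arrays overlapped at 24 h and were apart at 48 and 72 h. The average difference was log2 1.05 (SE 0.19, 2.08-fold, adjusted p = 0.000676), with log2 0.82 at 48 h, which did not pass the test (adjusted p = 0.0951), and 2.08 at 72 h (SE 0.32, 4.24-fold, adjusted p = 0.000275). SLC2A1, the basal glucose transporter of most cells, read 2251 and 2348 in induced cells at 72 h, against 1485 and 1395 in controls. These arrays did not overlap, and the difference was log2 0.68 (SE 0.21, 1.60-fold, adjusted p = 0.0286). Earlier controls read higher than those of 72 h, at 2054 and 2114 at 0 h, 1889 and 2102 at 24 h and 1729 and 1800 at 48 h. The SLC2A1 call at 72 h ended after quantile normalization (log2 0.58, adjusted p = 0.0641), after median centring (log2 0.50, adjusted p = 0.11) and without any 1 of the 4 arrays of 72 h (adjusted p of 0.0755 to 0.113). Its average effect was log2 0.29 (adjusted p = 0.0883; 0.0281 without induced replicate 2 of 48 h).

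Upper glycolysis had 7 tested genes, of which only GPI was called in the average effect and GPI and PFKP at 72 h, all lower. GPI is glucose-6-phosphate isomerase, which makes the fructose phosphate that phosphofructokinase uses. It read 16346 and 15422 in induced cells at 24 h, 7389 and 6034 at 48 h and 4328 and 4594 at 72 h. Controls read 19716 and 17568 at 24 h, 18238 and 17331 at 48 h and 16696 and 16658 at 72 h. All 6 induced arrays lay under all 6 control arrays, narrowly at 24 h and widely at 48 and 72 h. The average difference was log2 -1.18 (SE 0.07, 2.27-fold, adjusted p = 2.23e-07), with log2 -1.41 at 48 h (SE 0.13, 2.66-fold, adjusted p = 1.42e-05) and -1.90 at 72 h (SE 0.13, 3.74-fold, adjusted p = 4.76e-07). These GPI calls held under every alternative that was run, with an adjusted p of at most 0.0231.

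PFKP, the platelet form of phosphofructokinase, read 1567 and 1789.6 in induced cells at 72 h, against 2247 and 2884 in controls, without overlap. The difference was log2 -0.60 (SE 0.20, 1.52-fold, adjusted p = 0.0323), and its average effect was log2 -0.16 (adjusted p = 0.304). After division by the scale factor the 72 h difference was log2 -0.55 (adjusted p = 0.332). It had an adjusted p of 0.105 with only the arrays of that comparison fitted. The 72 h call of PFKP ended without either induced array of 72 h (adjusted p = 0.148 without replicate 1 and 0.0554 without replicate 2) or without control replicate 2 (0.213). The hexokinase HK2 read 1009 and 637 at 72 h in induced cells, against 309 and 568 in controls, and its difference of log2 0.94 did not pass the test (adjusted p = 0.109). PFKL, the liver form of phosphofructokinase, had an average effect of log2 -0.37 (adjusted p = 0.293). The aldolases ALDOA and ALDOC and the triose phosphate isomerase TPI1 had average effects of log2 -0.15, 0.13 and -0.09 with adjusted p-values of 0.317, 0.668 and 0.525. For ALDOA the 6 induced arrays of 24 to 72 h read 13097 to 16365 and the 6 controls 13459 to 19809.

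All 8 genes of lower glycolysis were tested. PKM and LDHA were lower in the average effect by their probe set of highest mean, PGK1 by its other probe set, and GAPDH, PGAM1, ENO1, ENO2 and LDHB were not called. PKM is pyruvate kinase, the last step before pyruvate. The probe set of higher mean read 20542 and 19402 in induced cells at 24 h, 12591 and 16531 at 48 h and 8350.4 and 7609 at 72 h. In controls the readings were 26514 and 20297 at 24 h, 22849.9 and 22695 at 48 h and 24125 and 19495 at 72 h. Induced and control arrays overlapped at 24 h and were apart at 48 and 72 h. The differences were log2 -0.77 on average (SE 0.10, 1.71-fold, adjusted p = 4.72e-05), -0.66 at 48 h (SE 0.17, 1.58-fold, adjusted p = 0.0146) and -1.44 at 72 h (SE 0.17, 2.72-fold, adjusted p = 2.95e-05). The 48 h call ended without induced replicate 1 (adjusted p = 0.154), control replicate 1 (0.0811) or control replicate 2 (0.0743) of 48 h.

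The other PKM probe set, whose identifier ends in f_at to mark probes that can match related transcripts, read 118 and 116 in induced cells at 48 h, against 1048 and 737 in controls. It was at least 6.48-fold lower at 48 h (log2 -2.70, SE 0.59, adjusted p = 0.00587; 0.0547 without control replicate 1 of 48 h) and at log2 -1.46 on average (SE 0.34, adjusted p = 0.00457; 0.0799 against control 0 h). Its readings at 72 h were 474 and -104 in induced cells, against 958 and 308 in controls. Those arrays overlapped, and the 72 h difference was not called (adjusted p = 0.181).

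LDHA, the lactate dehydrogenase subunit typical of glycolytic cells, read 17420.3 and 16808 in induced cells at 24 h, 15319 and 15034 at 48 h and 15123 and 12478 at 72 h. Its control readings were 19371 and 16545 at 24 h, 18426 and 19138 at 48 h and 18222 and 16843 at 72 h. The arrays were apart at 48 and 72 h only. The average difference was log2 -0.24 (SE 0.08, 1.18-fold, adjusted p = 0.0315), and no single time was called. It had an adjusted p of 0.0586 to 0.0826 when any 1 of 9 arrays was left out: both induced arrays of 24 h, both arrays of 48 h in either group, induced replicate 2 of 72 h, control replicate 1 of 24 h and control replicate 1 of 72 h. After quantile normalization it was log2 -0.10 (adjusted p = 0.32).

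PGK1, the phosphoglycerate kinase that makes the first ATP of the pathway, gave different answers from its 2 probe sets. The one with the higher mean read 19313 and 21213 in induced cells at 72 h, against 26903 and 21635 in controls, and was not called (average log2 -0.15, adjusted p = 0.149). The other, whose identifier ends in s_at to mark probes that can match several transcripts, read 1675 and 1130.0 in induced cells at 72 h, against 2755 and 2894 in controls. It was lower at 72 h (log2 -1.04, SE 0.22, 2.05-fold, adjusted p = 0.00273) and on average (log2 -0.44, SE 0.13, 1.35-fold, adjusted p = 0.0175). Its average call ended without induced replicate 2 of 24 h (adjusted p = 0.0551) or control replicate 1 of 24 h (adjusted p = 0.053), and against control 0 h the average was log2 0.03 (adjusted p = 0.94).

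The enolase ENO1, the phosphoglycerate mutase PGAM1 and the lactate dehydrogenase subunit LDHB had average effects of log2 -0.22, -0.16 and -0.16 with adjusted p-values of 0.0905, 0.243 and 0.0967. Without control replicate 2 of 72 h, ENO1 (0.0224), LDHB (0.042) and the PGK1 probe set of higher mean (0.0479) were called lower, and ENO1 also without control replicate 2 of 24 h (0.0338). GAPDH, often used as a reference gene, had an average effect of log2 -0.02 (adjusted p = 0.922). Its induced arrays of 24 to 72 h read 6579 to 11744 and the controls 6170 to 10163. The neuronal enolase ENO2 read at most 311.7 on induced arrays and 220.03 on control arrays of these times.

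Several enzymes of glycolysis read above 10000, and their smaller differences depended on the scaling of the arrays. Each deposited array carried a scale factor between 0.785 and 1.22, and division by it takes away the scaling of the arrays to a common mean. The GAPDH 5′ control probe set, which was not tested, had a 1.56-fold range over the 16 arrays as deposited and a 1.20-fold range after its values were divided by that factor. Of the 9 member probe sets with a mean above 10000, 6 varied less after division, as did 46.2% of all 381 tested probe sets above that mean and 14.6% of the 7443 others. With the division, the average effects of GPI (log2 -1.03, adjusted p = 2.51e-05) and the first PKM probe set (log2 -0.62, adjusted p = 0.000926) were still called, those of LDHA (log2 -0.09, adjusted p = 0.664) and the s_at probe set of PGK1 (log2 -0.28, adjusted p = 0.384) were not, and ALDOA, PGAM1 and LDHB lay between log2 -0.01 and 0.00.

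**Figure D3:**
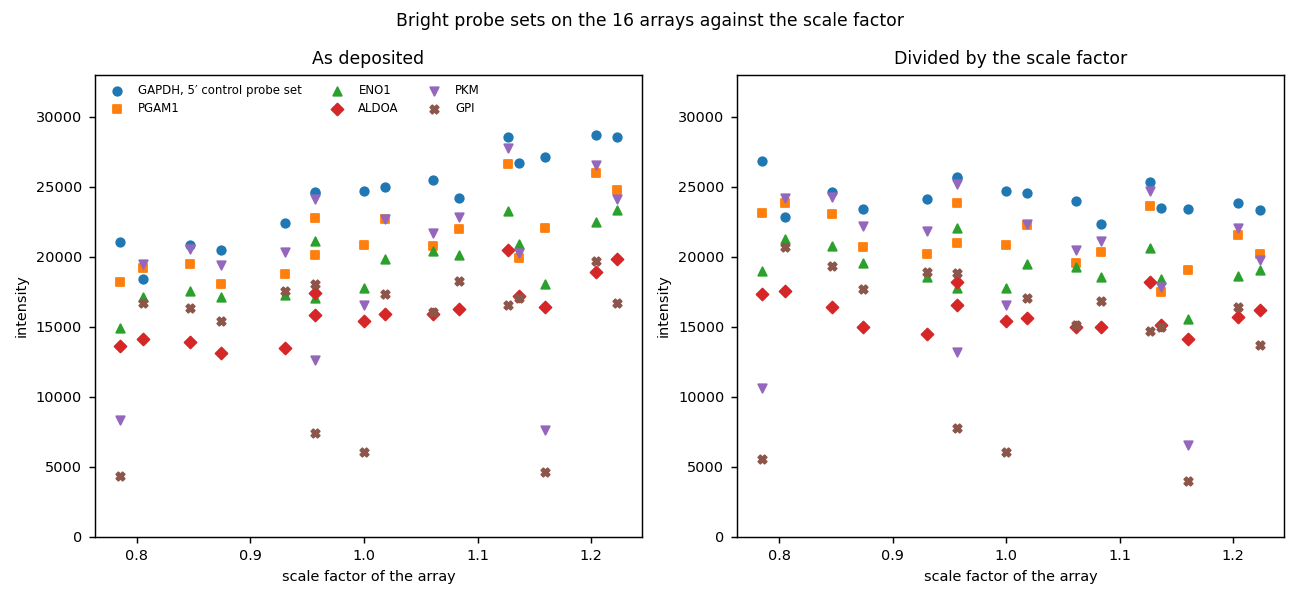
Intensity of 6 probe sets with a mean above 10000 on each of the 16 arrays against the scale factor of the array, as deposited on the left and divided by the factor on the right. The GAPDH 5′ control probe set, PGAM1, ENO1 and ALDOA lie higher on arrays of larger factor on the left and more level on the right, while GPI and PKM have low arrays, all of induced cells, on both sides.

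Among 5 tested genes that set flux, PDK1 was lower on average and at 72 h. PDK1 is a kinase that inhibits pyruvate dehydrogenase and so keeps pyruvate out of the mitochondrial cycle. It read 104 and 119 in induced cells at 24 h, 241 and 114 at 48 h and 167 and 22.6 at 72 h. In controls it read 216 and 235 at 24 h, 176 and 159 at 48 h and 537 and 525 at 72 h. The 72 h arrays were far apart, with both controls of 72 h above every other array, while the 48 h arrays overlapped. PDK1 was at least 3.53-fold lower at 72 h (log2 -1.82, SE 0.42, adjusted p = 0.00458) and at least 1.76-fold lower on average (log2 -0.81, SE 0.24, adjusted p = 0.0191). Set against control 0 h alone, the average was log2 -0.26 (adjusted p = 0.654), without induced replicate 2 of 48 h its adjusted p was 0.0541, and after division by the scale factor it was log2 -0.70 (adjusted p = 0.0904). PDK3, another such kinase, and PFKFB2, PFKFB3 and PFKFB4, which make and break the fructose bisphosphate that activates phosphofructokinase, were not called, with log2 values of -0.22 to 0.49. PFKFB3 read log2 0.05 by its probe set of higher mean and -0.19 by its other tested one (adjusted p = 0.908 and 0.625).

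The 3 tested pentose phosphate enzymes all belong to the pathway after its first step, and TALDO1 alone was called. TALDO1, transaldolase, links the pathway back to glycolysis. It read 10602 and 8214 in induced cells at 24 h, 6458 and 4624 at 48 h and 4154 and 3594 at 72 h. The controls read 9025 and 7594 at 24 h, 8145 and 9768 at 48 h and 9776 and 9440.3 at 72 h. The groups overlapped at 24 h and lay apart at 48 and 72 h. The average difference was log2 -0.62 (SE 0.12, 1.53-fold, adjusted p = 0.00181), with -0.71 at 48 h (SE 0.22, 1.63-fold, adjusted p = 0.0354) and -1.31 at 72 h (SE 0.22, 2.49-fold, adjusted p = 0.000433). The 48 h call ended without induced replicate 2 (adjusted p = 0.274), control replicate 1 (0.0702) or control replicate 2 (0.209) of 48 h, and the average call ended against control 0 h (log2 -0.47, adjusted p = 0.0882) and after division by the scale factor (log2 -0.46, adjusted p = 0.0554).

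TKT, transketolase, read 6161 and 5537 in induced cells at 72 h, against 9251 and 9828 in controls, and this difference of log2 -0.71 did not pass the test (adjusted p = 0.0517). Other controls read 12123 and 8220 at 0 h, 6018 and 5912 at 24 h and 5918 and 5008 at 48 h. TKT was called lower at 72 h after median centring (log2 -0.89, adjusted p = 0.0214) and with only the arrays of that comparison fitted (0.0305). A filter of at least 8 of 16 arrays above the median also gave a call (0.047). PGD, the dehydrogenase that yields NADPH and ribulose phosphate, had an average effect of log2 -0.09 (adjusted p = 0.481), with readings of 11985 to 16185 on induced and 13258 to 16275 on control arrays of 24 to 72 h.

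Of the 4 hypoxia factors, all tested, HIF1A alone was called. HIF1A, whose protein is controlled mainly by its breakdown, read 1214 and 1292 in induced cells at 24 h, 2869 and 2001 at 48 h and 4051 and 2644 at 72 h. Control readings were 631 and 1216 at 24 h, 1169 and 776 at 48 h and 496 and 1416 at 72 h. Induced arrays stood above controls at 48 and 72 h, and the controls of 72 h differed widely from each other. The average difference was log2 1.27 (SE 0.27, 2.41-fold, adjusted p = 0.0024), with log2 1.33 at 48 h, which did not pass the test (adjusted p = 0.0624), and 1.97 at 72 h (SE 0.46, 3.90-fold, adjusted p = 0.00552). The 72 h call ended without induced replicate 1 (log2 1.66, adjusted p = 0.0626) or control replicate 1 (log2 1.21, adjusted p = 0.0852) of 72 h. Against control 0 h the average was log2 0.76 (adjusted p = 0.197). EPAS1, ARNT and VHL had average effects between log2 -0.08 and 0.15, with adjusted p-values of at least 0.674. The 2 tested ARNT probe sets differed in sign, at log2 -0.08 and 0.12 (adjusted p = 0.89 and 0.833).

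Of the 7 hypoxia targets 4 were tested. On average VEGFA was lower in 3 of 3 probe sets and BNIP3L higher, and P4HA1 and NDRG1 were not called. VEGFA encodes the main growth factor of blood vessels. The VEGFA probe set of highest mean read 2591 and 2201 in induced cells at 24 h, 1299 and 2076 at 48 h and 957 and 1324 at 72 h. Control arrays read 2635 and 4285 at 24 h, 4191 and 3644 at 48 h and 3779.6 and 3215 at 72 h. Every induced array of 24 to 72 h lay under every control array of those times. The average difference was log2 -1.12 (SE 0.16, 2.18-fold, adjusted p = 9.99e-05), with log2 -1.25 at 48 h (adjusted p = 0.0055) and -1.63 at 72 h (3.10-fold, adjusted p = 0.000448).

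The other VEGFA probe sets are called here the second and the third in order of mean. On average they gave log2 -1.21 (2.32-fold, adjusted p = 3.31e-05) and -1.52 (adjusted p = 0.000626, a fold of at least 2.86). At 72 h the second gave -1.99 (3.97-fold, adjusted p = 5.56e-05) and the third -2.18 (adjusted p = 0.0026, a fold of at least 4.53). The average and 72 h calls of all 3 held under every alternative run. At 48 h the second gave -1.30 (adjusted p = 0.00292) and the third -1.94 (adjusted p = 0.00941). The 48 h calls of the first and second ended after division by the scale factor (adjusted p = 0.0621 and 0.0733). They also ended with only the arrays of that comparison fitted (0.0651 and 0.0565). With a floor at the 50th percentile the 48 h call of the third ended (0.14). The 48 h call of the first ended without induced replicate 1 (adjusted p = 0.0684) or control replicate 1 (0.0507) of 48 h, and that of the third without induced replicate 2 (0.0501) or control replicate 1 (0.0881).

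BNIP3L, a receptor that marks mitochondria for removal, was the only member called higher at 48 h. It read 1617 and 1041 in induced cells at 24 h, 5537 and 5301 at 48 h and 6057 and 5220.3 at 72 h. The controls read 968 and 1091 at 24 h, 1683 and 1068 at 48 h and 2329 and 2667 at 72 h, but 4049 and 3425 at 0 h. Induced arrays stood above same-time controls at 48 and 72 h. The difference was log2 2.01 at 48 h (SE 0.25, 4.04-fold, adjusted p = 0.000119), 1.17 at 72 h (SE 0.25, 2.26-fold, adjusted p = 0.00278) and 1.17 on average (SE 0.14, adjusted p = 3.87e-05). The 0 h controls were higher than the later ones, and the average against control 0 h was log2 -0.13 (adjusted p = 0.712).

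P4HA1, a subunit of the enzyme that hydroxylates proline in collagen, read 1966 and 2117 in induced cells at 72 h, against 3036 and 3015 in controls. It was lower at 72 h without overlap (log2 -0.57, SE 0.19, 1.48-fold, adjusted p = 0.0418) and not called on average (log2 -0.06, adjusted p = 0.725). Leaving out any 1 of 8 arrays ended this call, with an adjusted p of 0.0526 to 0.145: the 4 arrays of 72 h, both induced arrays of 24 h and both controls of 48 h. NDRG1, a stress-responsive gene that hypoxia induces, had an average effect of log2 -0.30 (adjusted p = 0.105). It was called lower after median centring (log2 -0.44, adjusted p = 0.015), without control replicate 1 of 72 h (log2 -0.42, adjusted p = 0.0252) and against control 0 h (log2 -0.69, adjusted p = 0.0235).

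The promoter windows of 5 called genes, picked by hand, are printed to show which hypoxia and RUNX motifs stand near their start. HIF1A was the only one of these genes higher after induction, and each printed window held at least 1 motif, unlike the windows of PFKP and PDK1. Each runs from 250 bases before to 50 after the start of the gene in RefSeq (GRCh38.p14), read 5′ to 3′ on the strand of the gene. Capitals mark the hypoxia response element cores ACGTG and GCGTG and the RUNX motifs TGTGGT and TGCGGT, searched on both strands. GPI lies on the plus strand at chr19:34364742-34365041, PKM on the minus strand at chr15:72231141-72231440, TALDO1 on the plus strand at chr11:747214-747513, LDHA on the plus strand at chr11:18394313-18394612 and HIF1A on the plus strand at chr14:61695263-61695562.
GPI: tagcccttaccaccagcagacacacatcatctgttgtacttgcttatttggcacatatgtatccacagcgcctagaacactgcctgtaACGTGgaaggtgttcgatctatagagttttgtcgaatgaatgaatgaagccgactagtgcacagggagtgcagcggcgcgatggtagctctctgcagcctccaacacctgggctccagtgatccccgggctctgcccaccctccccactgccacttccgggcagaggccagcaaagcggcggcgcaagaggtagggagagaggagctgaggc
PKM: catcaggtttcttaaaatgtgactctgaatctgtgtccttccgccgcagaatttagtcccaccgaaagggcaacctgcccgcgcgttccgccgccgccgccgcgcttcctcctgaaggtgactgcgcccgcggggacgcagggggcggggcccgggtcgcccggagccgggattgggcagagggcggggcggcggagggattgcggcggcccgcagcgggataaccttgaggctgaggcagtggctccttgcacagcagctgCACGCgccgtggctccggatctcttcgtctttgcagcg
TALDO1: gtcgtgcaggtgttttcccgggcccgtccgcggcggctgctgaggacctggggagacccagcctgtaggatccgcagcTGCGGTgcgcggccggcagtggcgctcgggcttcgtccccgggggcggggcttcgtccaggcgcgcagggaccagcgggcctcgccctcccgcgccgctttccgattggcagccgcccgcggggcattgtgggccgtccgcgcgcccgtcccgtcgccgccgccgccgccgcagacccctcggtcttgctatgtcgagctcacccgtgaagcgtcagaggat
LDHA: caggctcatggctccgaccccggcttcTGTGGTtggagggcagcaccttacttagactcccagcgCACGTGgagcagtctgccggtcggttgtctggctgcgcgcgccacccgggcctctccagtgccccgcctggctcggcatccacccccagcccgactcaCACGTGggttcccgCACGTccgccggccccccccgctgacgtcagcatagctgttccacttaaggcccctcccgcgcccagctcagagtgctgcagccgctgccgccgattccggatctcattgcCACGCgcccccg
HIF1A: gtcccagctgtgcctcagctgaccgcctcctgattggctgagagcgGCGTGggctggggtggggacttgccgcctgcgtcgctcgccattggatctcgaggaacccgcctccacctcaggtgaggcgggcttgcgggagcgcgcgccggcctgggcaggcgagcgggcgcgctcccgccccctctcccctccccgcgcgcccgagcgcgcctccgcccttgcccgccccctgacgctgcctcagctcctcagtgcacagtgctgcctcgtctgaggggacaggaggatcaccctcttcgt
GPI, lower after induction, held 1 ACGTG, and HIF1A, higher after induction, held 1 GCGTG, both on the strand of the gene. PKM held 1 GCGTG on the opposite strand, TALDO1 held 1 TGCGGT and neither hypoxia core, and LDHA held 5 ACGTG, 1 GCGTG and 1 TGTGGT. In LDHA, 4 of the 5 ACGTG matches form 2 overlapping pairs, since CACGTG reads the same on both strands.

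A promoter was matched for 33 members. A hypoxia core was present in 69.7% of them (23 of 33), against 55.9% of 15843 protein-coding promoters and 48.4% of all 27305 promoters of the same length. Either RUNX motif was present in 39.4% (13 of 33), against 18.6% of protein-coding and 19.4% of all promoters. The median GC content was 70% for the members and 62.7% for protein-coding promoters. The windows of PFKP and PDK1, both called lower at 72 h, held none of these motifs. No promoter was matched for the called genes VEGFA, SLC2A3 and BNIP3L. A match describes letters in a window and is not evidence of binding.

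At 12 h, induced cells could be set only against control 0 h, so induction and 12 h of culture cannot be told apart, and the 0 h arrays are shared with the comparisons of later controls. No member was called higher and 4 probe sets of 3 genes were called lower, or 9.76% of 41, where 1.16% of all probe sets were called higher and 2.12% lower. BNIP3L read 872 and 821 in induced cells at 12 h, against 4049 and 3425 in controls at 0 h (log2 -2.14, SE 0.25, 4.40-fold, adjusted p = 0.00104). VEGFA by its first probe set read 1764 and 2023 at 12 h, against 5617 and 5128 at 0 h (log2 -1.51, SE 0.27, 2.84-fold, adjusted p = 0.0107). SLC2A1 read 1208 and 1002 at 12 h, against 2054 and 2114 at 0 h (log2 -0.92, SE 0.21, 1.89-fold, adjusted p = 0.0366). In each of these genes the 12 h arrays lay under the 0 h arrays, and the second VEGFA probe set was called as well (log2 -1.18, adjusted p = 0.0245). The median log2 difference was 0.04 over the members and -0.15 over all probe sets. The balance of directions over all probe sets turned with the scaling, with 91 higher and 166 lower as deposited, 166 and 126 after quantile normalization and 221 and 80 after median centring. Under both of these, 1 member probe set was called higher and 3 lower. The higher one was PFKP, at log2 0.60 as deposited (adjusted p = 0.105), 0.72 after quantile normalization (adjusted p = 0.0483) and 0.85 after median centring (adjusted p = 0.0161). HIF1A read 443 and 552 at 12 h, against 1513 and 1055 at 0 h, which did not pass the test (log2 -1.35, adjusted p = 0.122).

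These 12 h calls rested on few arrays, and BNIP3L alone of the 4 stayed called when any 1 of the 4 arrays was left out. Without induced replicate 2 of 12 h the first VEGFA probe set stayed called too, and without control replicate 1 of 0 h ALDOC was called lower instead (log2 -1.28, adjusted p = 0.0347). With only those 4 arrays in the fit the count was 0. The SLC2A1 call also ended after quantile normalization (adjusted p = 0.0929), after median centring (0.109) and without induced replicate 2 of 24 h or either control of 48 h (0.051 to 0.0563). BNIP3L also differed between controls of different times. Control 24 h against control 0 h gave 1 member lower, BNIP3L, where 0.332% of all probe sets were called lower. BNIP3L read 968 and 1091 at 24 h, against 4049 and 3425 at 0 h (log2 -1.86, SE 0.25, 3.62-fold, adjusted p = 0.00564; 0.063 without control replicate 1 of 24 h). For the first VEGFA probe set the later controls were at log2 -0.68 at 24 h, -0.46 at 48 h and -0.62 at 72 h against 0 h, none of them called. No member was called in controls at 48 or 72 h, where 0.0128% and 0.0383% of all probe sets were, and BNIP3L stood at log2 -1.47 (adjusted p = 0.0926) and -0.58 (adjusted p = 0.631).

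**Figure D4:**
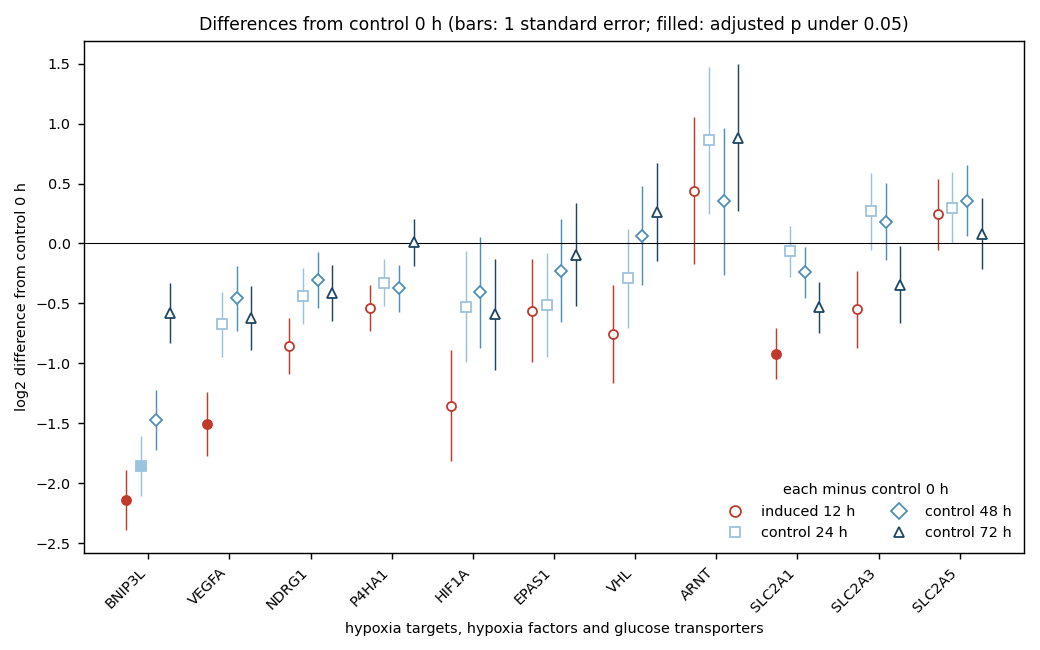
Log2 difference from control 0 h of induced cells at 12 h and of controls at 24, 48 and 72 h for 11 hypoxia and transporter genes, with bars of 1 standard error and filled symbols for an adjusted p under 0.05; all share the 2 arrays of control 0 h. BNIP3L is filled at log2 -2.14 in induced cells at 12 h and -1.86 in controls at 24 h, and VEGFA and SLC2A1 are filled only in induced cells at 12 h.

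Whether the same-time effects differed between 24, 48 and 72 h was asked with an F test. It called 7 member probe sets, 17.1% of 41, where 10.9% of all probe sets were called. They were GPI, the first PKM probe set, the s_at probe set of PGK1, TALDO1, the second VEGFA probe set, SLC2A3 and BNIP3L. GPI had the smallest adjusted p of these, 0.00024, with an effect at 72 h minus that at 24 h of log2 -1.67. In 5 of the 7 the effect at 72 h was more negative than that at 24 h, and in SLC2A3 and BNIP3L it was more positive. The BNIP3L effect was larger at 48 h (log2 2.01) than at 72 h (log2 1.17). The count fell to 2 without control replicate 1 of 72 h, 3 without either induced array of 24 h or induced replicate 2 of 72 h, and 4 without control replicate 2 of 24, 48 or 72 h.

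Among 72 further genes of these pathways, listed with earlier results of these data known, 36 were tested, and 10 (27.8%) were higher and 9 (25%) lower in the average effect, where 18.5% and 13.4% of all probe sets were. Of 7 tested genes of the pentose phosphate pathway and NADPH supply, 2 were higher and 4 lower, with a median of log2 -0.62. PRPS2 and PRPS1, which turn ribose phosphate into the precursor of nucleotides, fell (log2 -1.35, 2.54-fold, adjusted p = 8.51e-07, and log2 -1.03, 2.05-fold), as did RPE, an epimerase of the pathway (log2 -0.67). TKTL1, a gene related to transketolase, was higher (log2 1.17, adjusted p = 0.0371). Its lowest readings, 128 on induced and -145 on control arrays, were under the floor, so the size of this difference depends on the floor. Of 8 other glycolysis, gluconeogenesis and glycogen genes, 1 was higher and 3 lower, among them PCK2, the mitochondrial form of phosphoenolpyruvate carboxykinase (log2 -1.59, 3.01-fold, adjusted p = 2.23e-05), and the glycogen phosphorylase PYGL (log2 -0.92, 1.90-fold). Of 5 pyruvate dehydrogenase genes 2 were higher and none lower, with PDHB, a catalytic subunit, at log2 0.97 (1.95-fold, adjusted p = 8.6e-05). Of 16 other hypoxia genes 5 were higher and 2 lower. The lipid droplet gene PLIN2 (log2 1.88, 3.68-fold, adjusted p = 2.91e-06), the coactivator EP300 (log2 1.57, 2.96-fold), CITED2, which competes with HIF1A for that coactivator (log2 0.85), and KDM3A, a histone demethylase (log2 0.74), were higher. BHLHE40, a repressor induced by hypoxia, was lower (log2 -1.44, 2.71-fold). Members of both hypoxia lists were therefore called in both directions.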

How the data were processed

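Total RNA from U937 cells was hybridised to 16 Affymetrix U95Av2 arrays. The authors deposited 1 linear intensity value per probe set and array, multiplied by the scale factor that the labels give; how probe sets were summarised is not stated in the sources used here. Below 0 lay 25.8% of the values. Values under the 40th percentile (135.61) were set to it, log2 was taken, and the 7824 probe sets above the median of all values (292.74) on at least 2 arrays were tested, without the 67 control probe sets. The 8 group means were estimated over all 16 arrays with limma 3.58.1 (R 4.3.3, eBayes with trend), and p-values, all two-sided, were adjusted by Benjamini-Hochberg over all 7824. Having 2 arrays a group limits the precision. A fold with values at the floor on the lower side is given as "at least". Symbols came from the platform annotation, and promoters from RefSeq.

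The members and lists were chosen with earlier results of these data known. A gene with several tested probe sets is counted by the one with the highest mean, and others are named where they disagree. Members called in the average effect or at 48 or 72 h are described with array values. Genes outside the 42 were named from the lists, at most 6 rises and 6 falls by size. The fit was tested on simulated data. Alternatives were 10 settings for the floor, scaling, filter, variance model, arrays fitted, block and controls, 16 fits with 1 array left out, and 2 added after the data were seen (48 and 72 h only, and division by the scale factor). Same-numbered replicates were not treated as pairs, since not every correlation of their deviations was above 0.1.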

Additional observations from a re-analysis of the deposited data

Results flagged for a closer look

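The effect of induction differed between 24, 48 and 72 h (limma F test, adjusted over all tested probe sets) for 7 member probe sets, and each is given as the log2 effect at 72 h minus that at 24 h. It was more negative at 72 h for GPI (-1.67, adjusted p = 0.00024), TALDO1 (-1.49, adjusted p = 0.0162), the PKM probe set of higher mean (-1.23, adjusted p = 0.0112), the s_at probe set of PGK1 (-1.25, adjusted p = 0.0471) and the second VEGFA probe set (-1.63, adjusted p = 0.0236). It was more positive for SLC2A3 (1.83, adjusted p = 0.0419) and BNIP3L (0.84, adjusted p = 0.0189). Each adjusted p belongs to the F test over 24, 48 and 72 h and not to the printed difference alone. For BNIP3L the effect was larger at 48 h (log2 2.01) than at 72 h (log2 1.17). Of 26 alternatives, 18 ended the call of the s_at probe set of PGK1, 13 that of SLC2A3 and 10 that of the second VEGFA probe set. The calls of TALDO1 and BNIP3L ended under 6 each and that of PKM under 3, while that of GPI held under all 26. In all 7 the effect at 24 h had an adjusted p of at least 0.991. RUNX1T1 itself was under the floor on replicate 2 of the induced cells at 24 h, and its part in the differences between times was not tested.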

How the results depend on the processing

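Of the calls of single genes, those of GPI (average, 48 and 72 h), SLC2A3 (average and 72 h), the PKM probe set of higher mean (average and 72 h), VEGFA (3 probe sets, average and 72 h), TALDO1, PDK1 and BNIP3L (72 h) and BNIP3L (48 h) kept their direction and stayed called under every alternative run. With the 0 h arrays as the only controls, the average effect turned for the s_at probe set of PGK1 (log2 0.027) and BNIP3L (log2 -0.13), and 1366 probe sets and 7 members were called, against 2499 and 13. After division by the scale factor the counts were 647 probe sets and 4 members at 48 h (1499 and 8 as deposited), 1423 probe sets at 72 h (2348), 20 and 1 for 12 h against 0 h (257 and 4), 5 and 0 for control 24 h (39 and 1), 0 for controls at 48 and 72 h (1 and 3), and 348 and 3 in the F test (854 and 7). The division, which takes away the scaling to a common mean, ended the 72 h calls of SLC2A1 (adjusted p = 0.193), PFKP (0.332), P4HA1 (0.356) and the s_at probe set of PGK1 (0.0854). It also ended the 48 h calls of the PKM probe set of higher mean (0.102) and TALDO1 (0.237). Fitting only the arrays of a comparison gave 5 members at 48 h, 0 probe sets and 0 members for 12 h and for control 24 h, and 0 probe sets for controls at 48 and 72 h. With no filter on low values 4 probe sets were called at 24 h, 169 for 12 h, 25, 16 and 8 for controls at 24, 48 and 72 h, and 3 members in the F test. Without the variance trend these were 2, 154 (2 members), 15, 6 and 5, and 3 members. A floor at the 30th percentile gave 2 probe sets for control 48 h, and one at the 50th gave 2 for control 48 h and 5 probe sets with 1 member for control 72 h.

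Leaving out 1 array gave 2109 to 2577 probe sets and 11 to 16 members on average, 0 to 1 and 0 at 24 h, 854 to 1560 and 3 to 9 at 48 h, 1602 to 2396 and 11 to 15 at 72 h, 80 to 324 and 1 to 5 for 12 h, 10 to 85 and 0 to 1 for control 24 h, 0 to 10 and 2 to 8 probe sets for controls at 48 and 72 h with 0 members, and 463 to 883 and 2 to 7 in the F test. The lone array of a group was then assumed to vary like the others. With the replicate number as a block, 2616 probe sets and 13 members were called on average and 0 probe sets for control 48 h. Deviations of same-numbered arrays correlated at 0.118, 0.00731 and -0.119 for induced against control at 24, 48 and 72 h, 0.0353 between induced 12 h and control 0 h, and 0.117, 0.0547 and 0.125 between controls at 24, 48 and 72 h and at 0 h. Not every pair was above 0.1, and the replicates were taken to share only a number.

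The share of higher calls in the average effect was 58.1% as deposited, 50.9% after quantile normalization, 44.8% after median centring and 70.8% after division by the scale factor. Median centring gave 43.8% at 48 h and 43.2% at 72 h, against 54.7% and 53.6%. At 12 h against 0 h the share was 35.4% as deposited, 56.8% after quantile normalization, 73.4% after median centring and 60% after division by the scale factor. At the floor lay 4.88% of tested member values, which limits folds of dim genes such as PDK1.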
